A study of Rattus norvegicus with 31 samples.

Results

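The genes described here make cholesterol, sense it, store and move it inside the cell, or pass it out to lipoproteins. The list holds 32 rat genes, named by symbol for their function; no measured value enters the rule, but the list was made with earlier results of these data known. For each gene the probe set with the highest mean over all arrays was taken. A named probe set was found for 30 of the 32 genes, out of 14217 genes named on the array, and all 30 passed the filter on low values. Hmgcs1 and Npc1 had no probe set named here and were not analysed here.

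Cells build cholesterol from acetyl-CoA, first through mevalonate and isoprenoid units to squalene, and then from lanosterol through a series of changes to the sterol rings. The transcription factor SREBP2 (Srebf2), escorted by Scap and held back by the Insig proteins, switches these genes on when sterols run low, and the related SREBP1 (Srebf1) acts more on fatty acid genes. In the testis, Leydig cells turn cholesterol into testosterone under the control of luteinizing hormone, while Sertoli cells and macrophages take up, store and export it.

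The data were expression values from 31 Affymetrix arrays of total RNA from the testes of LBNF1 rats aged 25 to 27 weeks, all given 6 Gy of radiation to the lower abdomen. The sham group had 14 arrays. The ablation group had 11 arrays from rats given flutamide, which blocks the androgen receptor, with a GnRH antagonist, which lowers the pituitary gonadotropins. The third group had 6 arrays from rats given estradiol as well as a GnRH antagonist and an androgen receptor antagonist. The label of the third group also names FSH supplementation, so what it received beside estradiol is taken from the series' title and design. The labels call the arrays biological replicates. The titles of all 14 sham arrays say irradiated, but the descriptions of 10 say control and those of 4 say irradiated. Between these descriptions limma called 0 of 21269 probe sets (513 at an unadjusted p under 0.05) and 0 of the 30 members at either level. All 6 estradiol arrays belong to a newer deposit than the other 25, so estradiol and deposit cannot be told apart. The values are MAS5 signals deposited on a log scale, read here as log2, and the fold sizes below rest on that reading. Medians of the arrays lay between -1.44 and -1.24. Sham replicates 6 and 7 and ablation replicate 4 stood apart by high meiotic and spermatid markers. In the tissue as a whole, fewer cells of a type and less RNA per cell cannot be told apart.

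The RNA came from whole testes, and markers of Leydig cells and macrophages, which handle much cholesterol, moved with the treatments. With ablation 6 Leydig markers out of 9 fell against sham and 2 rose. Their summed linear level was 65.57 to 128.7 (median 105.3) in sham, 51.75 to 68.28 (56.41) in ablation and 39.84 to 74.98 (63.54) with estradiol. This sum leans on Hsd3b1, the marker of the 9 with the highest mean over all arrays. The group means of Hsd3b1 were 4.72 in sham, 5.11 in ablation and 5.21 with estradiol (log2). Insl3, a Leydig cell peptide hormone, changed by -4.49 (log2) with ablation against sham, and Cyp17a1 and Cyp11a1, enzymes of steroid synthesis, by -2.20 and -1.91. With estradiol added they changed by a further -1.88, -1.85 and -0.56 against ablation, each called in that comparison. No other marker of the 9 was called there, and the median change of the 9 was 0.09. Insl3 stood above the level of the filter on low values in 3 of the 6 estradiol arrays. Of 10 macrophage markers 8 were lower with ablation, and their summed level was 18.4 to 29.81 in sham, 14.15 to 19.92 in ablation and 14.11 to 18.62 with estradiol. Of 7 Sertoli cell markers 4 were higher with ablation and none lower. The part of these cell markers in the results below was not tested.

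The stretches of DNA in front of 6 members are printed here because these genes carry the clearest changes (Acat2, Cyp51, Lcat and Lss), the change in a regulator (Insig1) or the tightest link between members (Idi1). They were chosen after the results were seen. Each shows the 250 bases before the RefSeq start on the rat build GRCr8, 5′ to 3′ on the gene's own strand. Capitals mark CCAAT or its reverse complement ATTGG, the site bound by the factor NF-Y, which works with SREBP at many cholesterol genes. The windows are chr1:50100590-50100839 on the plus strand (Acat2), chr4:30991443-30991692 on the plus strand (Cyp51), chr20:12118231-12118480 on the minus strand (Lss), chr17:66547525-66547774 on the minus strand (Idi1), chr4:8057770-8058019 on the minus strand (Insig1) and chr19:50748065-50748314 on the minus strand (Lcat).
Acat2: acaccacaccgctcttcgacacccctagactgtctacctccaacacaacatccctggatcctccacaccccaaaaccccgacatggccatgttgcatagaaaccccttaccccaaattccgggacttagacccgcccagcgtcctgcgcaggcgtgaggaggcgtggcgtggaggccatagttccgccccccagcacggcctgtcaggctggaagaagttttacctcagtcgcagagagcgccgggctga
Cyp51: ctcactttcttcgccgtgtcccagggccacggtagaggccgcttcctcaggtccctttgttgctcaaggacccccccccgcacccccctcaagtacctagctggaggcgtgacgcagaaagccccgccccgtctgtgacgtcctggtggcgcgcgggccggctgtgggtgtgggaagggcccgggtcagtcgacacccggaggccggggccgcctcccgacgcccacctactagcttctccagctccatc
Lss: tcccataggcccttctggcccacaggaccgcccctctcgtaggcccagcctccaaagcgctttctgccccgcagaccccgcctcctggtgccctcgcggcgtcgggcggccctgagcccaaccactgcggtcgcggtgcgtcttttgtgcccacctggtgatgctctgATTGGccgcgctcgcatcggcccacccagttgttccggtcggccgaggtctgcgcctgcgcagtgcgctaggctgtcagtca
Idi1: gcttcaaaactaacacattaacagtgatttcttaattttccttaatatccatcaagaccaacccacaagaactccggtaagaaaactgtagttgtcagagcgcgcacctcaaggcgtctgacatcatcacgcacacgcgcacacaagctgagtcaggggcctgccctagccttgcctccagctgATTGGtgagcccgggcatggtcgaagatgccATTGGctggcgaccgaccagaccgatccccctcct
Insig1: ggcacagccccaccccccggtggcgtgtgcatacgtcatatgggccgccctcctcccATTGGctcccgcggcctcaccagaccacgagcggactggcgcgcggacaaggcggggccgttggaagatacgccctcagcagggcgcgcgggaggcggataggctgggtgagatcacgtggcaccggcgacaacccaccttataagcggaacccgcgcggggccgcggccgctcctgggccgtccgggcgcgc
Lcat: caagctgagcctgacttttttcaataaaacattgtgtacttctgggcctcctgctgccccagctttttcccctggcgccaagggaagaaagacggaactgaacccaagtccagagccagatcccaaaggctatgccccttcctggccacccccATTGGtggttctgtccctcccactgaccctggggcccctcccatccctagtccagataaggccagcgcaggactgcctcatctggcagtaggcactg

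A RefSeq window of this kind was at hand for 25 of the 30 members. CCAAT on either strand lay in 20 of the 25, against 34.0% of all 33469 windows in the table, which cover genes of every kind. Idi1 had 2 matches, Lss, Insig1 and Lcat had 1 each, and Acat2 and Cyp51 had 0. Matches were not limited to genes that changed: 13 of the 17 members lower with estradiol plus ablation than in sham had CCAAT, and so did 7 of the 8 other members. The Sp1 box GGGGCGGGG was in 10 of 25, against 9.0%. The sterol response core TCACNCCAC was in 0 of 25, against 0.974%, and the estrogen response element, GGTCA and TGACC set 3 bases apart, in 0, against 0.0239%. These 4 motifs were picked, after match counts were seen, from 10 tried on these windows. Another 5 were shorter, longer or looser spellings of the sterol core, found in 0 to 2 members each. The last was the cyclic AMP element TGACGTCA, found in 0. A match is a string of letters and not a measured binding site.

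The first comparison asks what removing gonadotropin and androgen action does to these genes in the irradiated testis. With ablation, 16 of the 30 members were lower than in sham and 0 higher, at a Benjamini-Hochberg adjusted p under 0.05 over all 21269 probe sets. Over all probe sets tested 10.3% were called lower and 9.15% higher. The median change of the members was -0.31 (log2), and that of all probe sets was 0.0157. The falls lay in synthesis (12 of 16 genes) and in efflux and lipoproteins (3 of 4), with 1 of 5 regulators and 0 of 5 genes of uptake, storage and transport in the cell. For Acat2, Cyp51 and Lcat, 3 members, the highest ablation array was under the lowest sham array, which held for 1.4% of all probe sets, and 0.371% lay wholly above. Without the 3 arrays high in germ cell markers 15 members were lower with ablation, and in the comparisons below 2 with estradiol against ablation and 20 against sham.

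**Figure D1:**
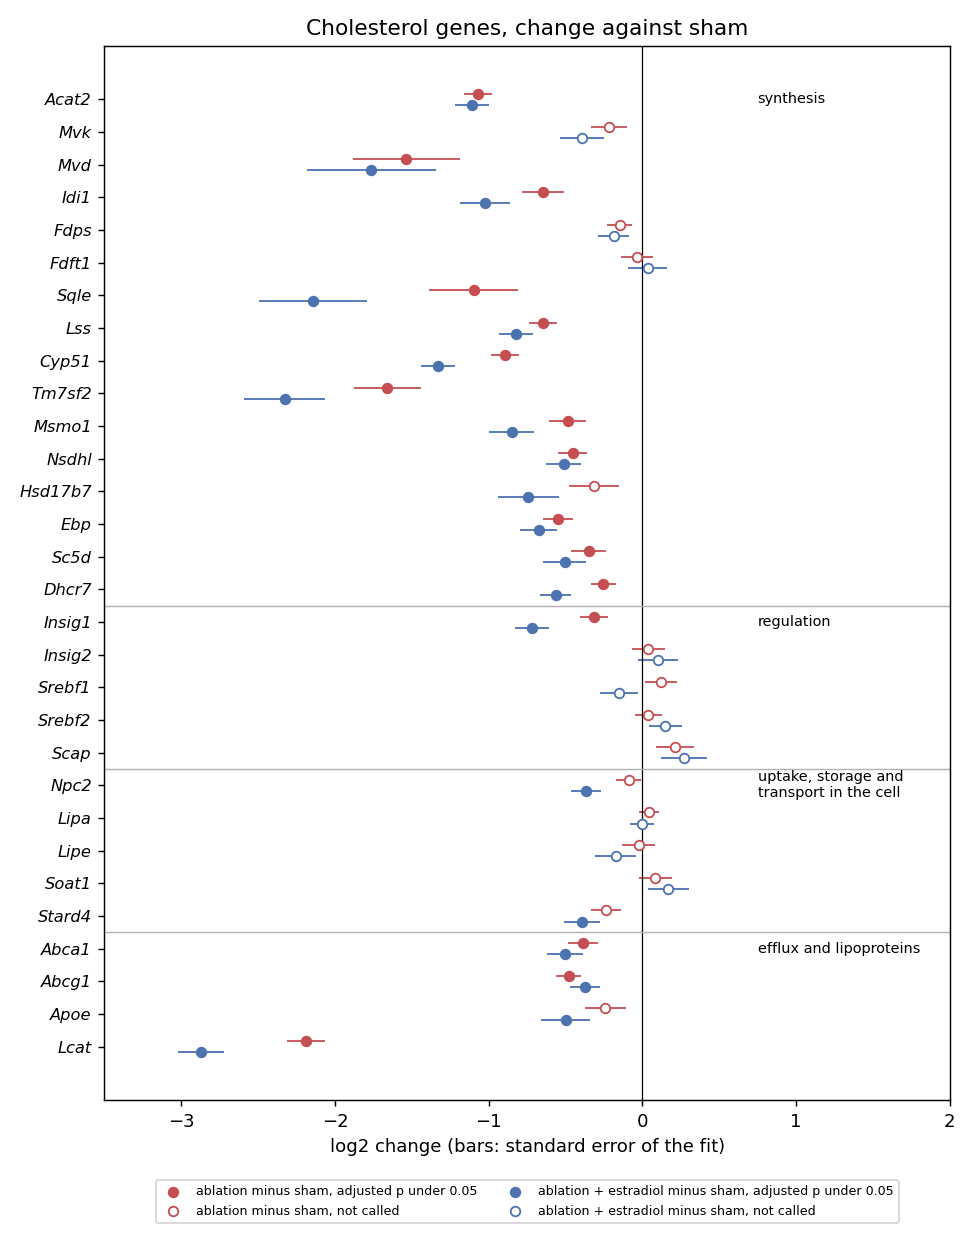
Change of each of the 30 members against sham on the log2 scale, with ablation (red) and with ablation plus estradiol (blue), bars giving the standard error of the fit and filled points an adjusted p under 0.05. The filled points all lie left of 0, 16 for ablation and 20 for ablation plus estradiol, most of them in the synthesis block at the top.

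Among the early enzymes, which lead to squalene, the clearest change was in Acat2, the cytosolic thiolase that joins acetyl-CoA units. Its values ran from 0.94 to 1.63 (median 1.26) in sham, from -0.15 to 0.72 (0.21) in ablation and from -0.05 to 0.45 (0.12) with estradiol plus ablation. Both treated groups lay wholly below sham. The change with ablation was -1.07 ± 0.09 (log2 ± SE), or 2.10-fold lower (adjusted p = 1.41e-11). Idi1, which interconverts the isoprenoid building blocks, ran from 0.05 to 1.47 (0.97) in sham, from -0.13 to 0.88 (0.22) in ablation and from -0.38 to 0.41 (-0.10) with estradiol. Its groups overlapped, sham replicate 3 being the low sham array, and it changed by -0.65 ± 0.13 with ablation (1.57-fold lower, adjusted p = 0.000533). Mvd, which decarboxylates mevalonate diphosphate, changed by -1.54 ± 0.35 (adjusted p = 0.0013). Its signal was above the filter level in 9 of 14 sham arrays, 1 of 11 ablation arrays and 0 of 6 estradiol arrays, and raised to that level its change was -0.35. Mvd thus passed the filter through sham alone, where it is high, and its call supports nothing; without it 15 of 29 members and 11 of 15 synthesis genes were lower. Mvk, which phosphorylates mevalonate, changed by -0.22 ± 0.12 (adjusted p = 0.201), Fdps, which makes farnesyl diphosphate, by -0.15 ± 0.08 (0.222) and Fdft1, the squalene synthase, by -0.04 ± 0.10 (0.853), none of them called. The 95% interval for Fdft1, -0.25 to 0.18, leaves out a change as large as that of Acat2 or Idi1.

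Squalene is next oxidized by Sqle and closed into lanosterol by Lss, and the sterol rings are then trimmed. Sqle, a rate-controlling step, ran from -1.22 to 0.67 (-0.05) in sham, from -3.14 to -0.32 (-1.11) in ablation and from -3.45 to -0.66 (-2.38) with estradiol. The ablation and sham ranges overlapped, and the change was -1.10 ± 0.29 (2.14-fold lower, adjusted p = 0.00589). Against the 4 irradiated-described sham arrays alone it was -1.26 and no longer called. Lss ran from -0.02 to 0.72 (0.39) in sham, from -0.68 to 0.24 (-0.33) in ablation and from -0.60 to -0.19 (-0.42) with estradiol. The ablation range reached into the sham range and the estradiol range did not, and the change with ablation was -0.65 ± 0.09 (adjusted p = 1.01e-06). Cyp51, the lanosterol demethylase, ran from 1.80 to 2.41 (2.20) in sham, from 0.97 to 1.73 (1.25) in ablation and from 0.54 to 1.05 (0.87) with estradiol. Neither treated group reached the lowest sham array. Cyp51 changed by -0.89 ± 0.09 with ablation (1.86-fold lower, adjusted p = 1.92e-09), and its second probe set by -0.72 (adjusted p = 2.12e-08); the first is of a type whose probes can also match related transcripts.

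Tm7sf2, a sterol reductase, ran from -1.34 to 0.18 (-0.15) in sham, from -2.59 to -0.90 (-1.86) in ablation and from -3.40 to -1.18 (-3.06) with estradiol. It had the largest change of the synthesis genes with ablation, -1.66 ± 0.22 (3.16-fold lower, adjusted p = 2.71e-07). Raised to the filter level, above which it stood in 6 of 11 ablation and 2 of 6 estradiol arrays, it changed by -1.39. The later enzymes moved less. Msmo1, a methylsterol oxidase, changed by -0.49 ± 0.12 (adjusted p = 0.00367), Nsdhl, which removes the next carbon with it, by -0.45 ± 0.09 (0.000507) and Ebp, the sterol isomerase, by -0.55 ± 0.10 (8.82e-05). Sc5d, the desaturase that follows, changed by -0.35 ± 0.12 (adjusted p = 0.0281), and Dhcr7, a final reductase, by -0.25 ± 0.08 (0.0245). Sc5d's other probe sets were also called lower, at -0.34 (adjusted p = 0.00353) and -0.63 (0.0168). On the probe sets used, the calls of Sc5d and Dhcr7 were small and fragile. That of Sc5d was lost without ablation replicate 1, 4, 6 or 8 (changes of -0.32, -0.33, -0.31 and -0.33), and that of Dhcr7 without ablation replicate 7 (-0.23) or with quantile normalization (-0.20). Against the 10 control-described sham arrays alone both calls were lost, Sc5d at -0.37 (adjusted p = 0.0542) and Dhcr7 at -0.18 (0.138). That of Sc5d was also lost against the 4 irradiated-described arrays (-0.30) and without the arrays high in germ cell markers (-0.29). Hsd17b7, a ketosteroid reductase of the same steps, was not called at -0.31 ± 0.16 (adjusted p = 0.186), but was without sham replicate 3 (-0.43).

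**Figure D2:**
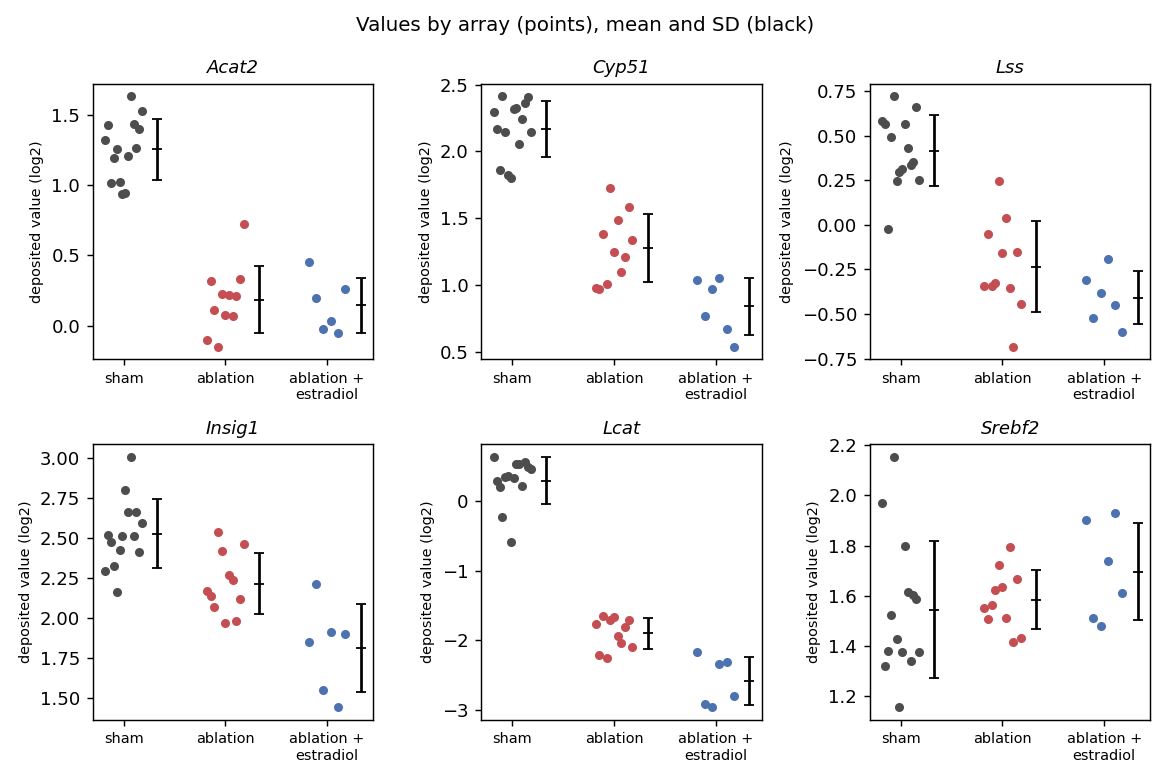
Deposited value (log2) in each array for Acat2, Cyp51, Lss, Insig1, Lcat and Srebf2 in the 3 groups, with the mean and SD in black and a scale of its own for each gene; the 6 members were chosen after their values were seen. The ablation points of Acat2, Cyp51 and Lcat lie below every sham point, while those of Srebf2 (1.41 to 1.79) lie within the sham range of 1.16 to 2.15.

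Of the regulators, Insig1 alone was called. Insig1, which holds the SREBP and Scap complex back and is itself a target of SREBP, ran from 2.16 to 3.01 (2.51) in sham, from 1.97 to 2.54 (2.17) in ablation and from 1.44 to 2.21 (1.88) with estradiol. The ranges overlapped, and it changed by -0.31 ± 0.09 with ablation (1.24-fold lower, adjusted p = 0.0121). Against the 4 irradiated-described sham arrays alone its change was -0.33 and not called. Srebf2 changed by 0.04 ± 0.09 (95% interval -0.14 to 0.22), Srebf1 by 0.12 ± 0.10 (-0.08 to 0.33), Insig2 by 0.04 ± 0.11 (-0.18 to 0.26) and Scap by 0.21 ± 0.12 (-0.04 to 0.46). The probe sets of Scap did not point the same way, the second being called lower at -0.47 (adjusted p = 0.0263).

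None of the 5 genes of uptake, storage and transport in the cell was called with ablation. Npc2, which carries cholesterol out of lysosomes, changed by -0.09 ± 0.08, and Lipa, the lysosomal lipase that frees it from esters, by 0.05 ± 0.06. Lipe, the neutral lipase that releases stored esters, changed by -0.02 ± 0.11, and Soat1, which makes the esters, by 0.08 ± 0.11. The 95% intervals of these 4 genes reached no further than -0.25 and 0.31. Soat1's second probe set was called lower at -0.64 (adjusted p = 0.0495). Lipe's second probe set did not pass the filter. Stard4, a carrier of sterol between membranes, changed by -0.24 ± 0.10 (adjusted p = 0.0835), and was called without sham replicate 3 (-0.27). Its other probe sets, at -0.01 and -0.02, were not called.

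In the efflux and lipoprotein group the largest change of all members was that of Lcat, which esterifies cholesterol on lipoproteins. Lcat ran from -0.59 to 0.63 (median 0.35) in sham, from -2.26 to -1.64 (-1.81) in ablation and from -2.96 to -2.17 (-2.57) with estradiol. No treated array reached the lowest sham array, and the change with ablation was -2.19 ± 0.12 (4.56-fold lower, adjusted p = 1.64e-16). It was above the filter level in all 14 sham arrays, 6 ablation arrays and 0 estradiol arrays, and raised to that level the change was -2.08. Abca1, which loads cholesterol onto apolipoproteins, ran from 3.28 to 4.09 (3.75) in sham and from 2.94 to 3.70 (3.28) in ablation. The ranges overlapped, with 10 of 11 ablation arrays below the sham mean, and it changed by -0.39 ± 0.10 (adjusted p = 0.00403). Abcg1, which hands cholesterol to lipoprotein particles, ran from 2.20 to 2.88 (2.50) in sham and from 1.78 to 2.29 (2.04) in ablation, and changed by -0.48 ± 0.08 (adjusted p = 3.42e-05). Its 11 ablation arrays all lay below the sham mean and 8 below every sham array, but its other probe sets, at -0.19 and -0.27, were not called. Apoe, the lipoprotein ligand made by macrophages and steroid-making cells, changed by -0.24 ± 0.13 (adjusted p = 0.216) and was not called.

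**Figure D3:**
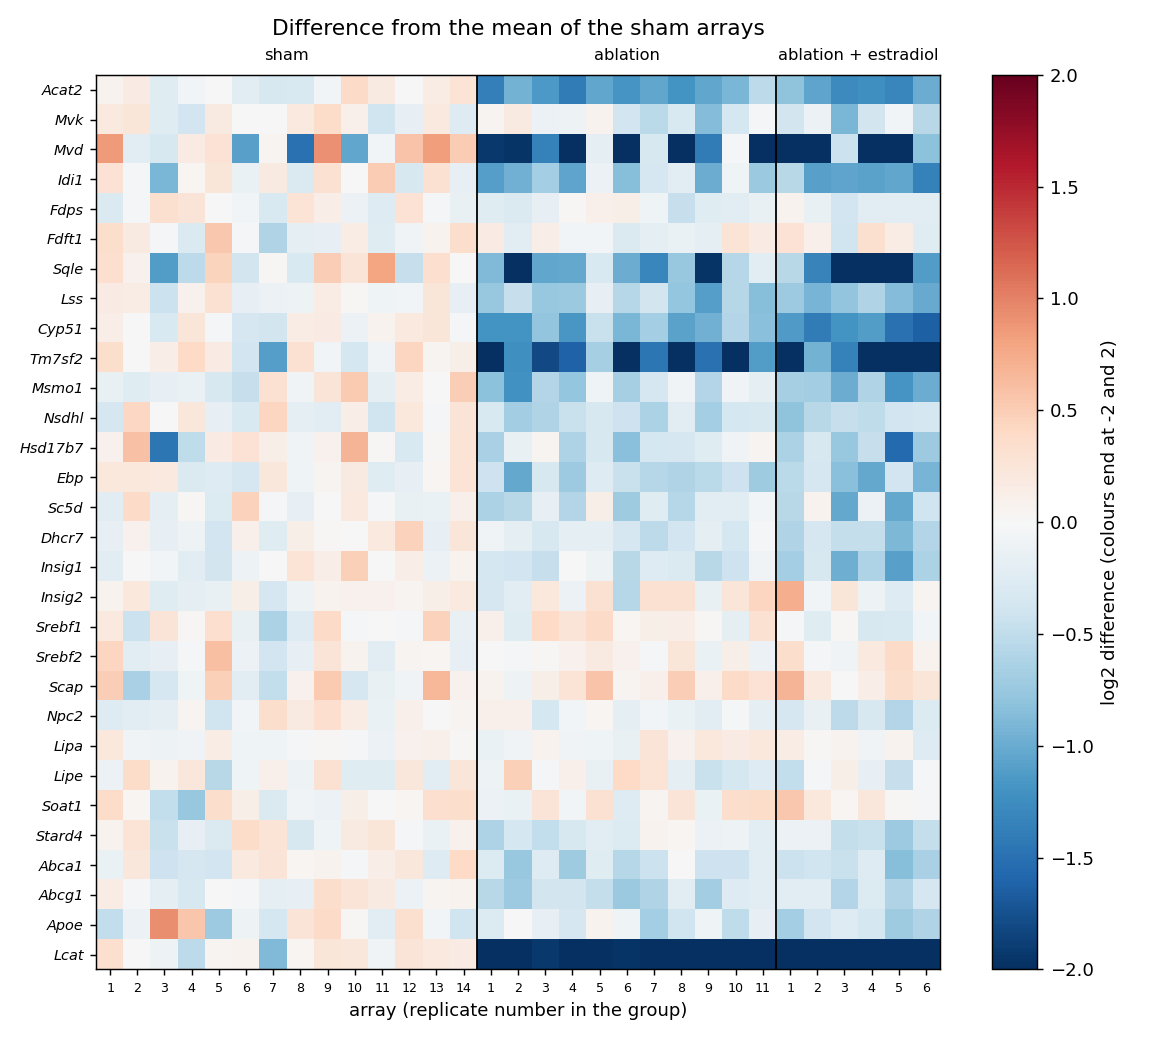
Difference of each array from the mean of the sham arrays (log2, colours ending at -2 and 2), with the 30 members in rows by role and the 31 arrays in columns by group. Lcat is dark in all 17 treated arrays, Acat2 and Cyp51 are blue in all of them, and the regulators below Insig1 show pale cells of both colours.

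The second comparison asks what estradiol adds to ablation. Cyp51, Insig1 and Lcat were lower with estradiol than with ablation alone, 3 of 30 members, and 0 were higher. Over all probe sets tested 4.92% were called lower and 0.592% higher. The median change of the members was -0.16, and that of all probe sets -0.03. No member's groups were without overlap, while 1.35% of all probe sets lay wholly lower and 0.193% wholly higher. Cyp51 changed by -0.44 ± 0.12 (1.35-fold lower, adjusted p = 0.018), and 4 of 6 estradiol arrays lay below every ablation array. The second probe set of Cyp51, at -0.33, was not called (adjusted p = 0.0605). Insig1 changed by -0.41 ± 0.11 (1.32-fold lower, adjusted p = 0.0255). Each rested on few arrays. Without estradiol replicate 5 or 6 Cyp51 was no longer called (-0.40 and -0.38), nor was Insig1 without replicate 3 or 5 (-0.35 and -0.33) or with each array centred on its median (-0.36). Lcat changed by -0.69 ± 0.16 (adjusted p = 0.00395), but no estradiol array stood above the filter level, and raised to it the change was -0.09 (adjusted p = 0.794).

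Other members were lower by amounts that missed the threshold. Sqle changed by -1.04 ± 0.37 (95% interval -1.78 to -0.30, adjusted p = 0.0962), and was called without ablation replicate 2 (-1.24) or estradiol replicate 1 (-1.36). With values under the filter level raised to it, which touches 2 ablation and 3 estradiol arrays, its change was -0.41 (adjusted p = 0.404). Its 6 estradiol arrays fell in separate ranges, with -3.45, -3.42 and -3.30 in some and -1.45, -1.22 and -0.66 in the others. Dhcr7 changed by -0.31 ± 0.10 (adjusted p = 0.072) and was called without ablation replicate 7 (-0.34) or estradiol replicate 2 (-0.35). Tm7sf2 changed by -0.67 ± 0.27 (adjusted p = 0.175) and was called without estradiol replicate 2 (-0.95), but raised to the filter level its change was -0.08 (adjusted p = 0.872). Leaving out estradiol replicate 2 gave 5 members called lower and leaving out replicate 5 gave 1. Idi1 changed by -0.38 ± 0.17 (adjusted p = 0.237), Msmo1 by -0.36 ± 0.15 (0.199), Hsd17b7 by -0.43 ± 0.21 (0.281), Npc2 by -0.28 ± 0.10 (0.122) and Srebf1 by -0.28 ± 0.13 (0.261). The remaining 19 members changed by between -0.26 and 0.11. Acat2 was among them at -0.04 ± 0.12 (95% interval -0.27 to 0.19).

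Against sham, estradiol plus ablation left 20 of 30 members lower and 0 higher. Over all probe sets tested 10.4% were called lower and 4.15% higher. This comparison shares its groups with the other comparisons, so its values stand beside theirs and are no further evidence. The median change of the members was -0.50, that of all probe sets -0.03. The lower members were 13 of 16 synthesis genes, Insig1, Npc2, Stard4 and all 4 genes of efflux and lipoproteins. In 5 members (Acat2, Cyp51, Lcat, Lss and Msmo1) every estradiol array lay below every sham array, which held for 2.15% of all probe sets, and 0.649% lay wholly above. Lcat changed by -2.87 ± 0.15, Tm7sf2 by -2.33 ± 0.26, Sqle by -2.14 ± 0.35 and Cyp51 by -1.33 ± 0.11. Of the 6 estradiol arrays 0, 2 and 3 stood above the filter level for Lcat, Tm7sf2 and Sqle, and raised to it their changes were -2.17, -1.47 and -1.37, all called. Without Mvd, which passed the filter through sham alone, 19 of 29 members were lower. Acat2 changed by -1.11 ± 0.11, Idi1 by -1.03 ± 0.16, Lss by -0.82 ± 0.11 and Insig1 by -0.72 ± 0.11. Members that had not been called with ablation alone were Hsd17b7 (-0.74 ± 0.20), Npc2 (-0.36 ± 0.10), Stard4 (-0.39 ± 0.12) and Apoe (-0.50 ± 0.16, adjusted p = 0.0304). Other probe sets of Hsd17b7 (-0.19) and Stard4 (-0.23 and -0.24) were not called. The call of Apoe was lost without estradiol replicate 1, 5 or 6 (-0.46, -0.46 and -0.48), with no filter (-0.50, adjusted p = 0.0587), with median centring (-0.46, 0.0654), with the compared groups alone in the fit (-0.50, 0.0689) and against the irradiated-described sham arrays (-0.41, 0.104). Also lost were the call of Stard4 without replicate 5 (-0.33), and that of Sc5d (-0.51 ± 0.14) without replicate 3 or 5 (-0.40 each). Against the irradiated-described sham arrays alone Stard4 (-0.43) and Sc5d (-0.45) were not called, nor was Stard4 against the control-described arrays (-0.38). Mvk missed at -0.39 ± 0.14 (adjusted p = 0.0543) and was called without sham replicate 3, 4, 11 or 14 or estradiol replicate 2 or 5 (-0.46 to -0.41). The regulators Srebf2 (0.15 ± 0.11), Scap (0.27 ± 0.15), Insig2 (0.10 ± 0.13) and Srebf1 (-0.15 ± 0.12) were not called, but quantile normalization called Scap (0.36) and the ester-forming Soat1 (0.26) higher. With the mean of all probe sets of a gene the calls of Lss (-0.44), Abcg1 (-0.13) and Apoe (0.02) were lost. For Lss and Apoe that mean takes in a probe set that had not passed the filter.

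To see whether members vary together between rats of the same treatment, 7 pairs of genes were correlated within the 14 sham and within the 11 ablation arrays, 14 tests in all. Of 8 pairs first chosen, 6 held Hmgcs1, which had no probe set; Idi1 stood in for it in 5, a choice made after seeing the data, and the pair of Hmgcs1 with Idi1 was not run. Idi1 and Sqle, enzymes on each side of squalene, rose and fell together in sham (Pearson r = 0.91, permutation p = 1e-05, the smallest that 100000 permutations can give, adjusted p = 0.00014). Spearman's rho was 0.85 (permutation p = 0.00018, adjusted p = 0.00252). Without the 2 arrays farthest from the median of Idi1 r was 0.78, and within the 10 sham arrays described as control it was 0.88. The 4 described as irradiated were too few for a value of their own. In ablation r was 0.47 (rho 0.45, adjusted permutation p = 0.317 and 0.475), and the difference between the groups was not tested. Cyp51 and Lss gave r = 0.58 in sham (rho 0.56, adjusted permutation p = 0.204 and 0.291) and 0.50 in ablation (0.317). Idi1 and Cyp17a1 gave -0.05 in sham and -0.03 in ablation, and Fdps and Fdft1 gave -0.13 and -0.16. In the same order, Idi1 gave -0.24 and 0.15 with Insig1, 0.33 and 0.60 with Srebf2, and 0.09 and 0.49 with Abca1. Of the 14 tests, 13 missed an adjusted p under 0.05.

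**Figure D4:**
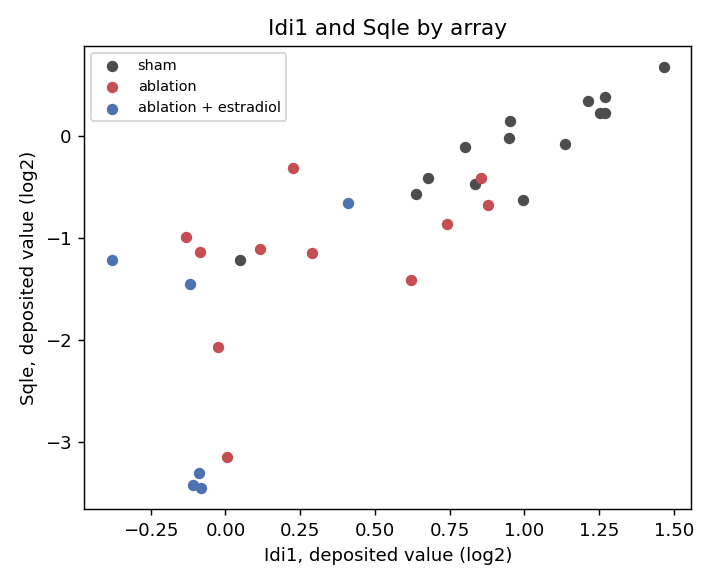
Idi1 against Sqle in each of the 31 arrays (deposited log2 values), coloured by group. The 14 sham points lie along a rising band (r = 0.91), the 11 ablation points scatter more (r = 0.47), and 3 of the 6 estradiol points lie below -3 for Sqle.

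Other genes of cholesterol handling, from a list drawn up by function, were looked at in the same fit. Of 29 tested, 12 were lower and 1 higher with ablation than in sham, where 10.3% and 9.15% of all probe sets were called. The median change of the 29 was -0.13. The 12 include Apoc1 and Scarb2, whose calls support nothing for the reason given below. Scarb1, the receptor for high-density lipoprotein, changed by -1.58, Tspo, a mitochondrial outer membrane protein, by -1.51, and Star, which brings cholesterol into mitochondria, by -0.86. Cd36, a scavenger receptor, changed by -2.13, Apoc1, an apolipoprotein, by -1.55 and Scarb2, of the lysosome membrane, by -0.90. Apoc1 was above the filter level in 14 sham arrays and 0 of the 17 treated arrays, and Scarb2 in 11 sham, 2 ablation and 3 estradiol arrays. Both passed the filter through sham alone, so their calls support nothing and their changes rest on signals near background. Acat1, the mitochondrial thiolase, changed by -0.68, Stard5 by -0.53, Cyp27a1, a sterol hydroxylase, by -0.41, Pmvk, the next mevalonate kinase, by -0.36, Vldlr by -0.31 and the receptor Lrp1 by -0.27. Ch25h, which makes an oxysterol, was higher by 0.45. It was above the filter level in 1 of 14 sham, 9 of 11 ablation and 6 of 6 estradiol arrays. Ch25h thus passed the filter through the treated groups alone, where it is high, and its call supports nothing.

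With estradiol added to ablation, 1 of the 29 was lower and 1 higher, where 4.92% and 0.592% of all probe sets were called. Lrp1 changed by -0.38 ± 0.11 (adjusted p = 0.0356), and Vldlr, a lipoprotein receptor, by 0.64 ± 0.10 (1.56-fold higher, adjusted p = 3.2e-05). Against sham, 10 were lower and 2 (Vldlr at 0.33 and Ch25h at 0.55) higher, where 10.4% and 4.15% of all probe sets were called. Cyp46a1 stood above the filter level in 7 sham arrays, 4 ablation arrays and 0 estradiol arrays, so it too passed through sham alone. Any call of Apoc1, Scarb2 or Cyp46a1 among the 10 supports nothing, and neither does that of Ch25h. Among 7 genes of fatty acid synthesis, Scd, Me1 and Acly were lower with ablation (-0.78, -0.31 and -0.29), Scd again passing the filter through sham alone, and Acss2, which makes acetyl-CoA from acetate, was lower with estradiol than with ablation (-0.41, adjusted p = 0.00381). Fasn, the fatty acid synthase, was not called in any comparison (-0.01, -0.12 and -0.12).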

How the data were processed

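Total RNA from 31 testis samples was hybridised to Affymetrix rat arrays. The authors deposited 1 table of values on a log scale (MAS5 signals, per the submitters' processing notes). The base, centring and scaling reference are not given in the sources used here; the deposited values were read as log2. From 31099 probe sets, 57 control sets were left out, and 21269 that lay above the 40th percentile of their array in at least 6 arrays were kept. Of the 31042 without controls, 20826 had 1 gene symbol, 436 several and 9780 none; 20758 matched a current symbol of RefSeq's GRCr8 table. The arrays' number limits the precision.

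All 31 arrays entered 1 fit with 3 groups in limma 3.58.1 (R 4.3.3; lmFit, eBayes with a trend, 2-sided), with Benjamini-Hochberg adjustment over all kept probe sets and calls at an adjusted p under 0.05. The fit was tested on simulated data. Every member is named, with full values for the genes the results turn on. Of the other cholesterol genes, those called with ablation against sham or with estradiol against ablation are named. For estradiol plus ablation against sham the higher ones are named and the lower ones given as a count. Insl3, Cyp17a1 and Cyp11a1 are named among the Leydig markers. Members, gene lists and tests were chosen with earlier results of these data known. Correlations within a group used 100000 permutations. Alternatives changed the filter, scaling, fit, sham arrays, replicate block, arrays left out and probe sets; the closing section gives their effect.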

Additional observations from a re-analysis of the deposited data

Results flagged for a closer look

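Among the 30 members examined in the 6 estradiol arrays, 1 had an array far from the rest. Hsd17b7, a reductase of the late sterol steps, stood at -1.74 (log2) in estradiol replicate 5, where the nearest array was at -0.94, a gap of 0.645 of the group's range. Chance alone flags about 1 in 20 such groups. Without that array Hsd17b7 changed by -0.58 with estradiol plus ablation against sham (limma, adjusted p = 0.0489), against -0.74 with it. Groups of more than 10 arrays were not examined in this way.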

How the results depend on the processing

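Of the member calls, 12 of 16 (ablation against sham), 0 of 3 (estradiol plus ablation against ablation) and 12 of 20 (estradiol plus ablation against sham) kept direction and side of the threshold in every alternative that tested them. Both counts of 12 include Mvd, which the stricter filter left out and whose call supports nothing. Leaving out 1 array at a time gave 15 to 18, 1 to 5 and 18 to 21 members lower and 0 higher, and 3724 to 4455, 830 to 1205 and 2540 to 3197 probe sets called of 21269. Between the sham descriptions it gave 0 to 1 called, the 1 without sham replicate 13. When sham was limited to its 4 irradiated-described arrays, 2345 probe sets were called in place of 4128 for ablation against sham, and 1702 in place of 3093 for estradiol plus ablation, with 13 and 17 members lower; fewer arrays were then compared. Insig1, Sqle and Sc5d lost their ablation calls there. Quantile normalization called Scap and Soat1 higher with estradiol plus ablation than in sham (2 members in place of 0), and raised the share of higher calls from 28.5% to 47.2% in that comparison and from 10.7% to 24.0% against ablation; the cause was not tested. Centring arrays on the median lost Insig1 for estradiol against ablation (adjusted p = 0.0911), as did leaving out the arrays high in germ cell markers (0.0536).

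The labels do not say what a shared replicate number marks, and not every pair correlated above 0.1 in any comparison, so the numbers were not taken to pair the arrays, though for estradiol and sham 3 of 6 pairs did. Deviations of same-numbered arrays from their group means correlated at -0.0856 to 0.0467 (11 pairs, ablation and sham), -0.182 to 0.0594 (6, estradiol and ablation) and -0.0107 to 0.376 (6, estradiol and sham), and 0, 0 and 3 arrays correlated best with their own number. With the replicate block 3185, 878 and 2349 probe sets were called, and 13, 1 and 14 members were lower, Lcat alone being left for estradiol against ablation. Sc5d, Dhcr7 and Insig1 lost their calls for ablation against sham (adjusted p = 0.0703, 0.0803 and 0.0506), and Hsd17b7 (0.0806), Npc2 (0.137), Stard4 (0.153), Abca1 (0.0797), Abcg1 (0.107) and Sc5d (0.0641) for estradiol plus ablation against sham.

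Direction turned in 44 values, and Apoe against sham, 0.0154 with the mean of all probe sets of the gene, was the single one whose value as reported was called; its second probe set had not passed the filter. With that mean Scap (-0.1304), Soat1 (-0.2765) and Apoe (0.2647) turned for ablation against sham. Mvk (0.0485), Fdft1 (-0.0500), Lss (0.0120) and Abca1 (0.0300) turned for estradiol against ablation, and Fdft1 (-0.0641) and Srebf1 (0.0190) for estradiol plus ablation against sham. Lipe was then called lower, at -0.97 and -0.98 against sham, where the probe set used gave -0.02 and -0.17. For Lipe, Lss and Mvk the mean takes in a probe set that had not passed the filter. Other settings turned values near 0. For ablation against sham these were Lipe with quantile normalization (0.0153) and the replicate block (0.0001), Insig2 (-0.0760) and Soat1 (-0.1028) with the irradiated-described sham arrays, and Srebf2 without the arrays high in germ cell markers (-0.0070). For estradiol against ablation they were Acat2 (0.0041) and Fdps (0.0035) with median centring and Acat2 with the replicate block (0.0186). For estradiol plus ablation against sham they were Lipa with quantile normalization (0.0613), median centring (0.0311), control-described sham arrays (0.0058) and the replicate block (0.0623), Insig2 (-0.0151) and Soat1 (-0.0181) with irradiated-described sham arrays, and Fdft1 without the arrays high in germ cell markers (-0.0178). Leaving out single arrays gave both signs for Acat2 (-0.1006 to 0.0145), Insig2 (-0.0634 to 0.1326), Lipa (-0.0799 to 0.0021) and Scap (-0.0228 to 0.1112) for estradiol against ablation. It did so for Fdft1 (-0.0835 to 0.0048), Insig2 (-0.0003 to 0.0988) and Lipe (-0.0748 to 0.0182) for ablation against sham, and for Fdft1 (-0.0215 to 0.1225), Insig2 (-0.0251 to 0.1709) and Lipa (-0.0345 to 0.0475) for estradiol plus ablation against sham. Signal near background limits Mvd, Sqle, Tm7sf2 and Lcat most.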
